A study of Mus musculus with 6 samples.

Results

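The calnexin and calreticulin cycle is the folding loop that newly made glycoproteins pass through in the endoplasmic reticulum (ER). It was followed here through 8 genes, chosen by symbol: the lectin chaperones Canx and Calr, the folding sensors Uggt1 and Uggt2, the glucosidase genes Mogs, Ganab and Prkcsh, and the mannosidase Man1b1. Each symbol matched a single row of the 54532 genes in the deposited table. All 8 were among the 17318 genes that passed the filter on low counts.

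The 6 libraries were made from ear skin RNA of mice aged 3 months. The CKO group held 3 libraries of genotype Ufl1f/f KRT14Cre/+, in which Cre under the keratin 14 promoter acts on both floxed Ufl1 alleles in the basal layer of the epidermis and in its descendants. The CTRL group held 3 libraries of genotype Ufl1f/+ or Ufl1f/f, which the labels do not tell apart, with no Cre. Floxed Ufl1 alleles were therefore shared by both groups, and Cre itself and loss of Ufl1 cannot be told apart. The labels do not say that each library came from a separate mouse, and the p-values then cover only the spread among these libraries, which may be technical.

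Ufl1 encodes the ligase that attaches the small modifier UFM1 to proteins at the ER surface, with ribosomes docked on the ER among its known targets. Secretory and membrane proteins receive an N-linked glycan tipped with glucose as they enter the ER. Glucosidase I (Mogs) and glucosidase II (Ganab with Prkcsh) trim these glucoses, and the trimmed glycan is held by the membrane-bound calnexin (Canx) or the soluble calreticulin (Calr) while the protein folds. UGGT enzymes put a glucose back on proteins that are still misfolded, which returns them to the lectins, and mannose trimming by Man1b1 leads towards degradation. In skin, collagens, integrins and desmosomal cadherins are made in the ER, and the melanocyte enzyme tyrosinase is a well-known client of calnexin.

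The upstream sequences of the lectin genes are shown first, because Calr and Canx had the largest log2 fold changes of the 8 genes and both carried an exact ER stress response element, the motif known to be bound by NF-Y together with ATF6 or XBP1. The motif searched was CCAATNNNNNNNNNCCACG on both strands, in the 300 bases around each RefSeq gene start. It was found in 39 of 32851 such windows (0.119%). Among the 8 cycle genes, it was found for Calr (on the opposite strand) and Canx, and the windows of the other 6 did not hold these letters. Below are 100 bases upstream of the start, read on the gene's own strand from RefSeq sequence of build GRCm38.p6. Capitals mark the outer 5-base blocks of the element in Calr, Canx and, for comparison, the ER chaperone gene Hspa5, and the CCAAT blocks in Ganab, whose window held CCAAT and CCACG but not at this spacing.
Calr, chr8:84847022-84847121, minus strand: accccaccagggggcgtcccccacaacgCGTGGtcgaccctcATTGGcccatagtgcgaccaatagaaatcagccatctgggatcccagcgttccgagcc
Canx, chr11:50325764-50325863, minus strand: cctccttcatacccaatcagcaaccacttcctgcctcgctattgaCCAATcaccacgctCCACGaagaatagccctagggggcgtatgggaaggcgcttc
Hspa5, chr2:34771990-34772089, plus strand: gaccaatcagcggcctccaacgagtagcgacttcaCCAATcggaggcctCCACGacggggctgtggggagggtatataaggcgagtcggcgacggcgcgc
Ganab, chr19:8897957-8898056, plus strand: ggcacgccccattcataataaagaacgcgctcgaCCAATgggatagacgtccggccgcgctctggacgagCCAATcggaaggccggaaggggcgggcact
The element began 162 bases before the start in Calr and 145 bases before it in Canx. A CCAAT block alone was present in 37.4% of windows and CCACG alone in 32.8%, so the spacing sets the element apart. A match describes the sequence only, and binding was not measured. The genes shown here were picked after their fold changes were seen, and a part of the element in their levels was not tested.

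Total counts were 18212929 to 19050876 in CKO libraries and 17256339 to 20776539 in CTRL libraries, and no library was a repeat of another (lowest chi-square per degree of freedom 17.9). Mitochondrial transcripts took 2.49% to 2.71% of the counts in CKO libraries and 2.28% to 4.59% in CTRL libraries, the highest share being in CTRL 1. Skin markers were abundant, with Krt14 at a mean of 3176 CPM (counts scaled by library size) in CKO and 2542 CPM in CTRL. Its groups overlapped, at 3372, 2670 and 3485 CPM in CKO 1 to 3, against 1159, 4560 and 1907 CPM in CTRL 1 to 3. The targeted gene Ufl1 was at 34.9, 35.6 and 38.8 CPM in CKO 1 to 3, against 57.9, 47.0 and 46.1 CPM in CTRL 1 to 3. It was lower without overlap, as were 4.81% of all genes. Its log2 fold change was -0.47 (SE 0.14), and it was not called by edgeR (adjusted p = 0.778) or by DESeq2 (adjusted p = 0.361). The Ufl1 count includes cells without Cre and exons that the deletion may leave, and their part in its level was not tested. Whole skin was used, so for every gene fewer cells of a type and less RNA per cell cannot be told apart.

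The question addressed was which transcripts of this cycle differed in skin when Ufl1 was deleted in the keratin 14 lineage. The lectin chaperones stood highest: Calr was 1.64-fold and Canx 1.34-fold the CTRL level, and the sensor Uggt1 was at 1.30-fold. The glucosidase II genes Ganab (1.16-fold) and Prkcsh (1.13-fold) were slightly higher in every CKO library, while Uggt2, Mogs and Man1b1 overlapped between the groups. No member passed the edgeR quasi-likelihood test over all genes at an adjusted p of 0.05 (0.0115% of the 17318 genes were called higher and 0.00577% lower). Before adjustment, 3 members had p under 0.05 with a higher level and 0 with a lower one, where 3.38% of all genes did so upwards and 1.95% downwards. The 3 members became 1 without CKO 1, CKO 3 or CTRL 3, and 2 without CKO 2 or CTRL 2 or with upper-quartile scaling. DESeq2 called 1 member, Calr, where it called 0.387% of 17303 genes higher and 0.139% lower. The authors' deposited table calls Calr alone of the 8, where 0.204% of 28492 genes are called higher and 0.0737% lower, and limma-voom and limma-trend called none. All 3 CKO libraries lay above all CTRL libraries for 5 members and below them for 0, where 5.73% of all genes were above and 4.81% below. The members were chosen with these libraries' results known, so the counts describe them and do not test them as a group.

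Calreticulin, the soluble lectin chaperone and calcium store of the ER lumen (Calr, ENSMUSG00000003814, chromosome 8, 84841850 to 84846934, mm10), was at 484, 391.9 and 454 CPM in CKO 1 to 3, against 256, 280 and 274 CPM in CTRL 1 to 3. The lowest CKO library was above the highest CTRL library, and CKO 2 was the lowest of its group. Means were 443 ± 47.1 CPM in CKO and 270 ± 12.2 CPM in CTRL (SD, n = 3 each). The edgeR log2 fold change was 0.72 (SE 0.15, 95% interval 0.37 to 1.06), and the p from edgeR was 0.0013 unadjusted and 0.464 adjusted. DESeq2 gave an adjusted p of 0.000691, and the authors' deposited table lists an adjusted p of 0.00338 for the same counts. In DESeq2 the call was lost without CKO 1 (adjusted p = 0.123) or without CKO 3 (adjusted p = 0.0899), with log2 fold changes of 0.65 and 0.70, in a comparison added after seeing the data. Calr ranked 48 of 17318 genes by edgeR p, and its log2 fold change was at the 96.1 percentile of all genes.

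Calnexin, the membrane-bound lectin chaperone (Canx, ENSMUSG00000020368, chromosome 11, 50293961 to 50325673), was at 378, 361 and 404 CPM in CKO 1 to 3, against 309, 268 and 274 CPM in CTRL 1 to 3. The groups did not overlap, and CTRL 1 came closest to the CKO libraries. The log2 fold change was 0.42 (SE 0.14, 95% interval 0.10 to 0.75), and its p was 0.0167 unadjusted and 0.843 adjusted in edgeR, and 0.214 adjusted in DESeq2. Per gene length, Calr transcripts were 2.09, 1.77 and 1.83 times those of Canx in CKO 1 to 3 and 1.35, 1.70 and 1.63 times in CTRL 1 to 3. This ratio does not depend on scaling between libraries, and every CKO library was above every CTRL library, though CKO 2 exceeded CTRL 2 by little. The log2 difference was 0.29, with p = 0.1 in a two-sided exact permutation test, the smallest that 3 against 3 allow (adjusted p = 0.25 over 5 ratios). Without CTRL 1 the log2 difference was 0.19 (exact permutation p = 0.2).

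**Figure D1:**
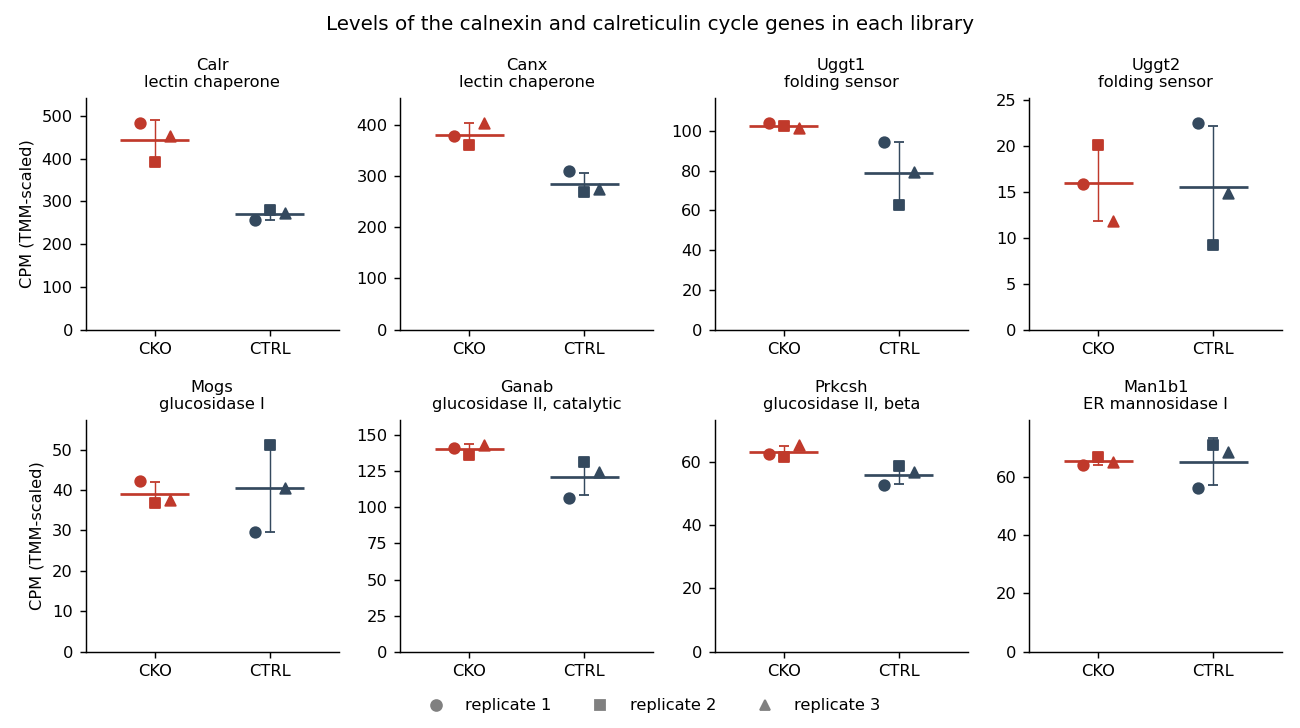
Level of each cycle gene in TMM-scaled CPM (y axes start at 0) in 3 CKO and 3 CTRL libraries, where symbols mark the replicate, horizontal lines the mean and bars 1 SD. Calr sits between 391.9 and 484 CPM in CKO and between 256 and 280 CPM in CTRL, while the groups overlap for Uggt2, Mogs and Man1b1.

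The folding sensors differed in level and in spread. Uggt1 (ENSMUSG00000037470, chromosome 1, 36140027 to 36244720), the main sensor that re-glucosylates unfolded glycoproteins, was at 104, 102 and 101.5 CPM in CKO 1 to 3, against 94.4, 63.0 and 79.5 CPM in CTRL 1 to 3. The CKO libraries were almost level, the CTRL libraries were spread widely, and the groups did not overlap. Its log2 fold change was 0.38 (SE 0.16, 95% interval 0.01 to 0.75), with p at 0.0446 unadjusted and 0.918 adjusted in edgeR, and it was 0.52 without CTRL 1 and 0.24 without CTRL 2. Uggt2 (ENSMUSG00000042104, chromosome 14, 118985039 to 119099430), the paralog with the same enzyme activity, was at 15.8, 20.1 and 11.9 CPM in CKO 1 to 3, against 22.5, 9.28 and 14.9 CPM in CTRL 1 to 3. Both the highest and the lowest library were controls. Its log2 fold change of 0.03 had a 95% interval of -0.74 to 0.80, so neither a higher nor a lower level could be seen at this spread, and the value changed sign under another scaling and with single libraries left out. Per gene length, Uggt1 was 6.55, 5.07 and 8.50 times Uggt2 in CKO 1 to 3 and 4.17, 6.76 and 5.30 times in CTRL 1 to 3 (log2 difference 0.31, exact permutation p = 0.5, adjusted p = 0.5). It was 0.12 without CKO 3 and 0.49 without CKO 2. Of the exon bases of Uggt2, 220 are shared with the antisense transcript gene Gm16835, which had 70 counts in all against 1747 for Uggt2. A strand setting was not given in the sources used here. Reads from these bases therefore cannot be told apart.

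The glucosidases act before and within the loop. Mogs (ENSMUSG00000030036, chromosome 6, 83115496 to 83118898), which removes the outermost glucose before the lectins can bind, was at 42.3, 36.9 and 37.6 CPM in CKO 1 to 3, against 29.6, 51.1 and 40.5 CPM in CTRL 1 to 3. The CKO values lay inside the range of the controls. Its log2 fold change was -0.06 (SE 0.20, 95% interval -0.52 to 0.40), and without CTRL 2 it was 0.15. Ganab (ENSMUSG00000071650, chromosome 19, 8898090 to 8916663), the catalytic subunit of glucosidase II, was at 141, 136 and 143 CPM in CKO 1 to 3, against 107, 132 and 125 CPM in CTRL 1 to 3. Its groups were apart by a narrow margin, which closed when libraries were scaled by total count alone (lowest CKO library 134.7 CPM, highest CTRL library 135.4 CPM). Prkcsh (ENSMUSG00000003402, chromosome 9, 22002806 to 22014222), the non-catalytic beta subunit that keeps Ganab in the ER, was at 62.5, 61.3 and 65.3 CPM in CKO 1 to 3, against 52.55, 58.6 and 56.75 CPM in CTRL 1 to 3.

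The subunits of glucosidase II kept a close ratio in all libraries. The log2 fold changes were 0.21 (SE 0.13) for Ganab and 0.17 (SE 0.11) for Prkcsh, with an adjusted p of 0.981 for both in edgeR, and without CTRL 1 both were at 0.12. Per gene length, Ganab was 2.50, 2.45 and 2.43 times Prkcsh in CKO 1 to 3 and 2.25, 2.49 and 2.43 times in CTRL 1 to 3, with CTRL 1 the lowest (log2 difference 0.04, exact permutation p = 0.5, adjusted p = 0.5). Without CTRL 1 the difference was 0.0005. Ganab to Mogs was less steady, at 2.50, 2.76 and 2.85 in CKO 1 to 3 and at 2.70, 1.93 and 2.30 in CTRL 1 to 3 (log2 difference 0.24, exact permutation p = 0.2, adjusted p = 0.333). It was 0.12 without CTRL 2 and 0.36 without CTRL 1.

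Man1b1, the mannosidase whose trimming takes glycoproteins out of the loop (ENSMUSG00000036646, chromosome 2, 25332338 to 25352212), was at 64.1, 66.8 and 64.9 CPM in CKO 1 to 3, against 56.0, 70.9 and 68.6 CPM in CTRL 1 to 3. The CKO libraries lay between CTRL 1 and the other controls. Its log2 fold change was 0.00 (SE 0.13), and the 95% interval of 0.813-fold to 1.24-fold leaves out a change as large as that estimated for Calr. It shares 234 exon bases with the antisense gene AA543186, which had 64 counts against 7361 for Man1b1.

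**Figure D2:**
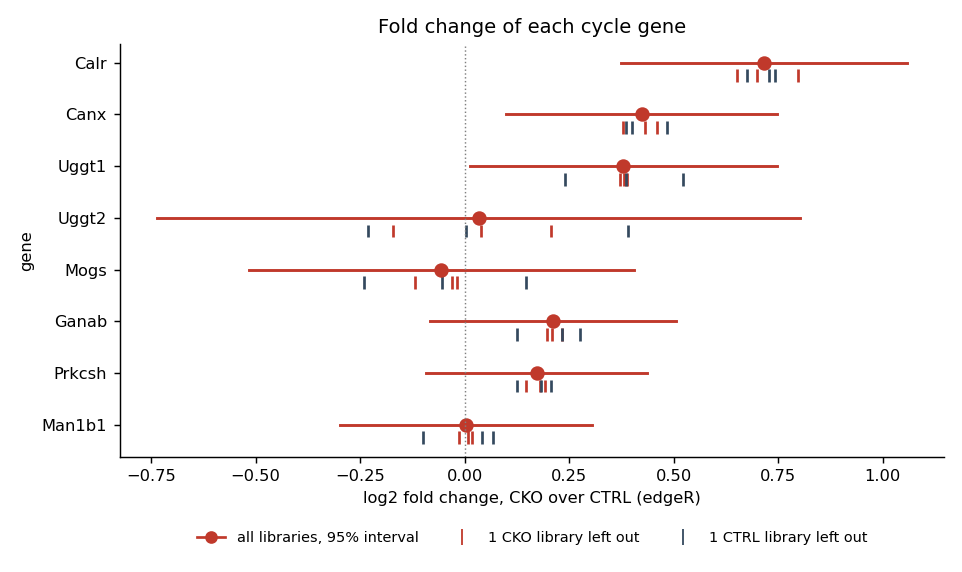
Log2 fold change of CKO over CTRL for each cycle gene (edgeR), with its 95% interval as a line and the values after leaving out 1 library as ticks, red for a CKO and dark for a CTRL library. Calr stays between 0.65 and 0.80 and Canx between 0.38 and 0.48, while Uggt2, Mogs and Man1b1 fall on both sides of 0.

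Levels were compared between genes per length, as the deposited FPKM (fragments scaled by gene length and library size). Calr was highest in every library, at 153 ± 16.03 FPKM in CKO and 92.9 ± 3.798 FPKM in CTRL (SD, n = 3 each). Canx followed at 76.4 to 85.8 FPKM in CKO and 56.2 to 65.5 FPKM in CTRL. Ganab came next at 36.0 ± 1.01 FPKM in CKO and 31.0 ± 3.13 FPKM in CTRL. Its deposited length was 3862 bases, against 5454 exon bases in GENCODE M21. The per-length level of Ganab, and the ratios and shares that use it, therefore depend on the annotation. Prkcsh, Mogs and Man1b1 lay close together, at means of 12.03 to 14.65 FPKM in CKO and 11.97 to 13.84 FPKM in CTRL. Prkcsh and Mogs overlapped in both groups, and Prkcsh and Man1b1 in CTRL. Uggt1 followed at 7.94 ± 0.0730 FPKM in CKO and 6.09 ± 1.24 FPKM in CTRL, and Uggt2 was lowest at 1.24 ± 0.317 FPKM in CKO and 1.21 ± 0.522 FPKM in CTRL. Summed over the 8 genes, the level was 295 to 332 FPKM in CKO libraries and 223 to 235 FPKM in CTRL libraries. Calr made up 50.1%, 45.8% and 47.8% of this sum in CKO 1 to 3 and 39.6%, 40.7% and 40.8% in CTRL 1 to 3. The share of Canx overlapped between groups, at 25.3% ± 1.16 in CKO and 26.1% ± 2.83 in CTRL, and that of Man1b1 was 3.79% ± 0.335 in CKO and 5.20% ± 0.495 in CTRL (SD, n = 3 each). Calr and Canx together took a larger part of the cycle's transcripts in the CKO, 71.7% to 74.1%, than in the CTRL, 64.7% to 69.0%.

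**Figure D3:**
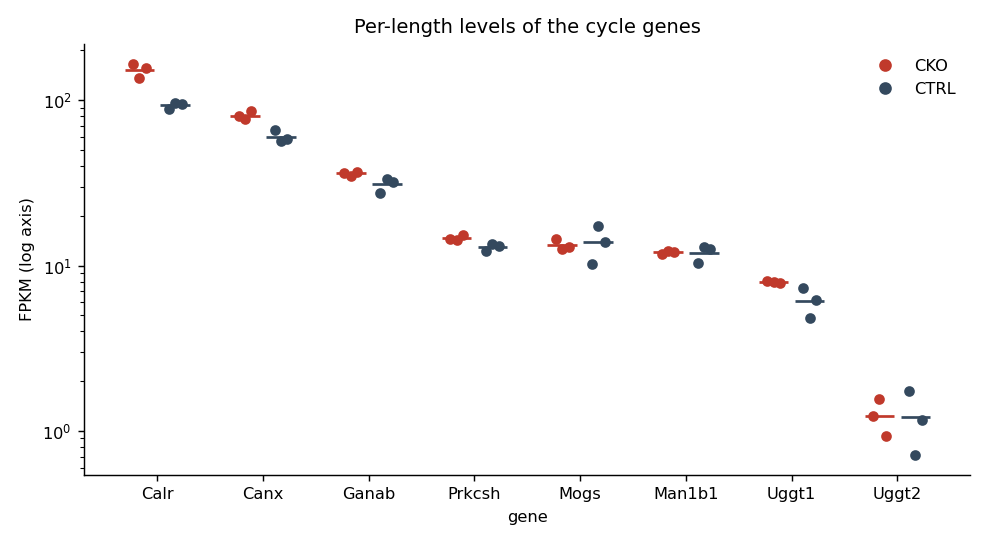
Deposited FPKM of each cycle gene on a log axis, with points for 3 CKO and 3 CTRL libraries and lines for the means. Calr and Canx lead in both groups, and Uggt2 lies near 1 FPKM, below all the others.

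The control libraries differed among themselves along the list. CTRL 1 was above CTRL 2 in Uggt2 (log2 ratio 1.27), Uggt1 (0.58) and Canx (0.20). It was below CTRL 2 in Mogs (-0.79), Man1b1 (-0.34), Ganab (-0.30), Prkcsh (-0.16) and Calr (-0.13). The transcripts of these genes range from 41.5% GC in Uggt2 and 42.2% in Canx to 57.4% in Prkcsh and 59.9% in Mogs. Over all genes, the median log2 ratio of CTRL 1 to CTRL 2 was 0.34 in the lowest of 10 bins by GC content and -0.455 in the highest, lower at each step between them. The median log2 fold change of CKO over CTRL stayed between -0.052 and 0.012 in these bins. The same libraries also differed in cell type markers. The keratinocyte marker Krt14 was at 1159 CPM in CTRL 1 and 4560 CPM in CTRL 2. The fibroblast marker Dcn was at 6384 CPM in CTRL 1 and 1698 CPM in CTRL 2. Whether GC content or tissue make-up plays a part in the differences between cycle genes was not tested.

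**Figure D4:**
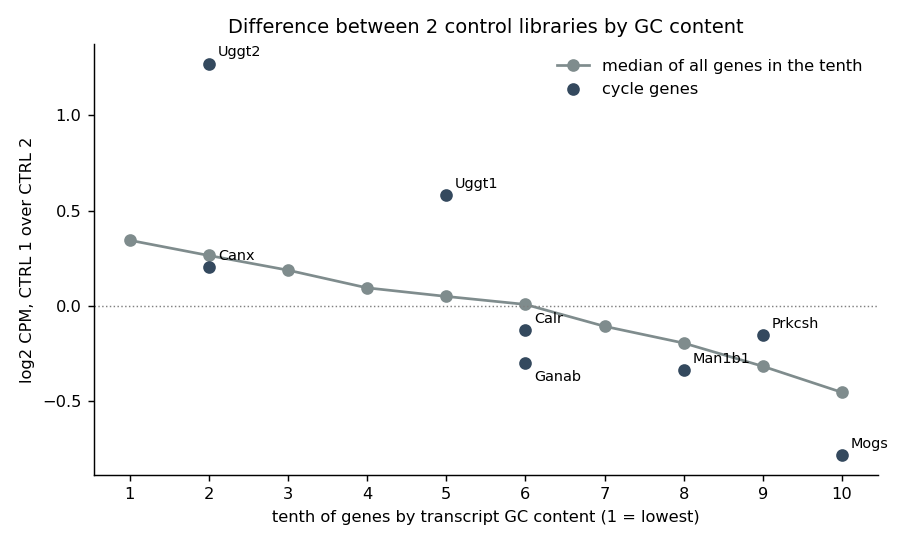
Log2 ratio of CTRL 1 to CTRL 2 (CPM) against 10 bins of all tested genes by GC content of the longest transcript, with the line and grey points giving the median of each bin and dark points the 8 cycle genes. The medians run downwards with GC content, Uggt2 (1.27) lies highest and Mogs (-0.79) lowest.

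The steps around the cycle were described from lists of related genes, which were drawn up with earlier results known. Over all 17318 genes the median log2 fold change was -0.01, and 47.8% were positive and 52.2% negative. At an unadjusted p under 0.05, 3.38% of them were higher and 1.95% lower, and DESeq2 called 0.387% of 17303 genes higher and 0.139% lower. The 8 cycle genes had a median of 0.19, with 7 positive (5 with upper-quartile scaling or without CKO 2). The edgeR test over all genes called 0 of them, and 0 genes in each of the other lists of pathway steps and ER chaperones. Upstream of the cycle, the 13 genes of the oligosaccharyltransferase, which transfers the glycan, and of malectin, an ER lectin for glucosylated glycans, had a median of 0.48, with 12 positive and 8 higher at an unadjusted p under 0.05. Rpn1, a subunit of that enzyme, was at 207, 192 and 214 CPM in CKO 1 to 3, against 129, 142 and 145.5 CPM in CTRL 1 to 3, and its adjusted p was 0.5285 by edgeR but 0.0113 by DESeq2. Log2 fold changes were 0.52 for Magt1 (SE 0.13), 0.48 for Ddost (SE 0.12) and 0.40 for malectin, Mlec (SE 0.12). The 23 genes that assemble the glycan on its lipid carrier had a median of 0.04 (0.01 without CKO 3, 0.11 without CTRL 1), with 15 positive, 2 higher at an unadjusted p under 0.05 and 0 called by DESeq2. Among these, Dpagt1, the enzyme of the first step, was at 0.37 (SE 0.13) and the mannosyltransferase Alg12 at 0.53 (SE 0.21).

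Partners of the lectins and routes out of the cycle were mixed. Pdia3, the disulfide isomerase ERp57 that calnexin and calreticulin recruit, was at 547.5, 474 and 586 CPM in CKO 1 to 3, against 437, 322.5 and 331 CPM in CTRL 1 to 3. Its groups did not overlap, and the log2 fold change reached 0.56 (SE 0.18), with an adjusted p of 0.828 in edgeR's test over all genes. The prolyl isomerase Ppib was at 0.26 (SE 0.13), Erp29 at 0.26 (SE 0.16) and the lectin paralog Calr3 at -0.16 (SE 0.30), and Clgn, the testis relative of calnexin, did not pass the filter on low counts. In this list of partners 1 of 5 measured genes (Pdia3) was higher with unadjusted p under 0.05 and 0 were called by DESeq2. Of all genes, 3.38% were higher at such a p.

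Lman1, the cargo lectin ERGIC-53 that carries folded glycoproteins out of the ER, was at 133, 128 and 137 CPM in CKO 1 to 3, against 89.0, 83.3 and 84.9 CPM in CTRL 1 to 3. Every CKO library was far above every control. Its log2 fold change was 0.63 (SE 0.11), and its adjusted p was 0.309 by edgeR but 0.0005 by DESeq2. The other cargo receptor genes Lman2 (0.23, SE 0.12), Lman2l (0.21, SE 0.14) and Mcfd2 (0.15, SE 0.15) had smaller log2 fold changes. Of the 10 genes of glycan-dependent degradation, 2 were higher with unadjusted p under 0.05, where 3.38% of all genes were. The median log2 fold change of the 10 was 0.14 (0.09 without CTRL 1, 0.23 without CTRL 3). The 2 genes at that p were the mannosidase-like Edem1 (0.54, SE 0.13) and Edem2 (0.49, SE 0.16), while Txndc11 was at 0.28 (SE 0.13) and Engase at -0.28 (SE 0.18). Golgi trimming genes had a median of 0.08 over 9 genes (-0.02 without CTRL 2, 0.20 without CTRL 1), with 0 at an unadjusted p under 0.05 and 0 called by DESeq2, and Man2a1 was at 0.27 (SE 0.19), Maneal at -0.29 (SE 0.33), Manea at 0.18 (SE 0.22) and Man1c1 at 0.16 (SE 0.20).

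**Figure D5:**
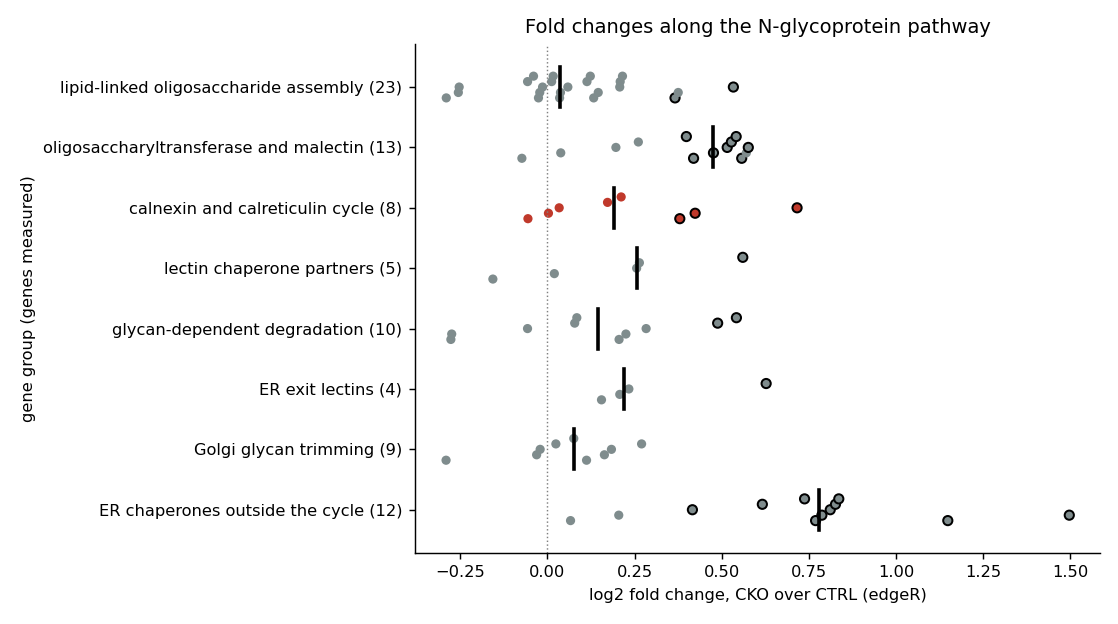
Log2 fold change of CKO over CTRL (edgeR) for each measured gene, in rows by step of the N-glycoprotein pathway, with the number of genes in brackets, a black bar at the median and a black rim on genes with an unadjusted p under 0.05. The cycle (red, median 0.19) lies between lipid-linked oligosaccharide assembly (0.04) and the oligosaccharyltransferase list (0.48), and the ER chaperones outside the cycle lie at 0.78.

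The ER chaperones that do not read glycans ranged widely around the lectins, with a median log2 fold change of 0.78. Hspa5, the general ER chaperone BiP, was at 1.15 (SE 0.15), next to 0.72 for Calr and 0.42 for Canx. Per gene length, Calr was 0.977, 0.849 and 0.891 times Hspa5 in CKO 1 to 3 and 1.096, 1.32 and 1.27 times in CTRL 1 to 3. Every CKO library was below every CTRL library in this ratio, with a log2 difference of -0.44 and p = 0.1 in the exact permutation test, the smallest possible (adjusted p = 0.25 over 5 ratios). In the list of 12 such chaperones, 12 were positive, where 47.8% of all genes were. An unadjusted edgeR p under 0.05 with a higher level was reached by 10 of them, where 3.38% of all genes did so. DESeq2 called 8 as higher, where it called 0.387% of all genes, and edgeR called 0 after adjustment (adjusted p = 0.105 for Hspa5). By edgeR p, Hspa5 was followed by Sdf2l1 (1.497, SE 0.23), Pdia6 (0.81, SE 0.13) and Hyou1 (0.83, SE 0.14), in that order. Pdia4 (0.62, SE 0.13) lay below Calr, and Dnajb11 (0.42, SE 0.12) was level with Canx. Dnajc3 (0.20, SE 0.19) and Dnajb9 (0.07, SE 0.25) had lower estimates than both Calr and Canx.

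Markers of cell types that could carry these transcripts were read in the same libraries. The summed level of 8 keratinocyte markers was 11420 to 14910 CPM in CKO and 7095 to 17370 CPM in CTRL, and that of 6 fibroblast markers 20430 to 21660 CPM in CKO and 9655 to 25370 CPM in CTRL, so both overlapped. The collagen gene Col1a1 did not, at 5539, 5420 and 5453 CPM in CKO 1 to 3, against 4885, 2394 and 3434 CPM in CTRL 1 to 3. Markers of plasma cells and salivary acini, which hold much ER, were low. Plasma cell markers summed to 33.9 to 62.9 CPM in CKO and 26.2 to 62.4 CPM in CTRL, mostly Ighm, with the defining genes Jchain at means of 0.322 CPM in CKO and 0.276 CPM in CTRL and Mzb1 at 0.330 CPM in CKO and 0.499 CPM in CTRL. Of 10 salivary acinar markers, 5 had no count in any library, and the list summed to 21.5 to 30.5 CPM in CKO and 17.5 to 33.6 CPM in CTRL. Its member Aqp5, a water channel, did not overlap, at 13.04, 8.83 and 6.97 CPM in CKO 1 to 3, against 3.58, 4.64 and 6.19 CPM in CTRL 1 to 3. Sebaceous gland (1928 to 2529 CPM in CKO, 1636 to 4857 CPM in CTRL), skeletal muscle (1910 to 5172 CPM in CKO, 2710 to 6043 CPM in CTRL) and cartilage markers (895 to 1505 CPM in CKO, 784 to 1519 CPM in CTRL) overlapped in their sums. Within the sebaceous list, whose sum was mostly Fa2h, Krt79 and Soat1, the desaturase gene Scd3 was lower without overlap (means of 1.88 CPM in CKO and 23.8 CPM in CTRL, DESeq2 adjusted p = 1.2e-07, edgeR adjusted p = 0.309). The melanocortin receptor gene Mc5r was higher without overlap, at means of 15.1 CPM in CKO and 10.8 CPM in CTRL. Of all genes, 5.73% were higher and 4.81% lower without overlap. The adjusted p in edgeR was 0.949 for Col1a1, 0.811 for Aqp5 and 0.907 for Mc5r. The 8 melanocyte markers summed to 181 to 271 CPM in CKO and 47.5 to 64.6 CPM in CTRL, without overlap, and the calnexin client gene Tyr was at 10.4, 13.7 and 17.3 CPM in CKO 1 to 3, against 2.51, 1.75 and 2.60 CPM in CTRL 1 to 3. The part of these cells in the levels of Calr and Canx was not tested.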

How the data were processed

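Ear skin RNA was made into libraries with a NEBNext Ultra kit after TRIzol extraction, per the labels' protocols. Per the submitters' processing notes, the tools included HISAT2 and HTSeq, on mm10. Their versions and a strand setting were not given in the sources used here. Per the file headers, the deposited table gives raw counts and FPKM for every gene and library. Their table also holds a normalized mean count per group (a signal value), log2 fold changes, p-values and adjusted p-values, and the gene length, per the file headers, and the test behind them is not named there.

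Counts were filtered with filterByExpr, scaled by TMM and compared with the edgeR 4.0.16 quasi-likelihood test (R 4.3.3, robust, no covariates, all 6 libraries), with Benjamini-Hochberg adjustment over 17318 genes and a threshold of 0.05. SE is the log2 fold change over the root of F, and intervals are at 95%. CPM are TMM-scaled, and log2 CPM used a prior count of 2. Ratios were taken from FPKM and compared by exact permutation. Tests were checked on simulated counts. GENCODE M21 gave overlaps and GC content (99.9% of tested genes), and its coordinates and lengths matched the table for 7 of the 8 genes, not for Ganab. Promoters are from RefSeq, with an entry for all 8 genes. Two-sided tests were used throughout.

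The members and lists were chosen with earlier results of these data known. Named genes were the members, Ufl1, Hspa5 and Tyr, up to 4 genes per list with the smallest edgeR p, up to 3 markers per cell type by level, and the 5 genes most alike over libraries, of which 1 is not reported here. Jchain, Mzb1, Clgn, Scd3, Mc5r, the 4 lowest ER chaperones and the genes named for an upstream element (present or not) or an overlap were named after their values were seen. Alternatives were RLE, upper-quartile and total count scaling, other filters, DESeq2 1.42.0, limma-voom and limma-trend (limma 3.58.1; log2 of FPKM plus 1 or plus 0.1, mean FPKM of at least 0.5), the replicate number as a block, edgeR without robust estimation, and leaving out each library.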

Additional observations from a re-analysis of the deposited data

How the results depend on the processing

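With all libraries edgeR called 3 genes, 2 higher and 1 lower. The count was 25 (18 higher, 7 lower) with every gene of at least 1 count, 91 (67 and 24) in DESeq2, 12 (10 and 2) with the replicate block, and 0 (0 and 0) in limma-voom and in limma-trend on either FPKM scale, and leaving out a library gave 0 to 4 (0 to 2 higher, 0 to 2 lower). Among the cycle genes DESeq2 called 1 higher, Calr at 0.71 (adjusted p = 0.000691), and with single libraries left out DESeq2 gave Calr an adjusted p of 0.000525 to 0.123. The edgeR and limma fits called no cycle gene, with an adjusted p for Calr of 0.205 to 1. With the replicate block 1 cycle gene had an unadjusted p under 0.05, against 3 without it. Calr, Canx, Uggt1, Ganab and Prkcsh kept a positive sign in every fit. Man1b1 was at -0.0279 with upper-quartile scaling, -0.0211 with total counts and -1e-04 with 1 CPM in 3 libraries, and Uggt2 at -0.0018 with upper-quartile scaling. Without single libraries Man1b1 ranged from -0.0998 to 0.0671, Uggt2 from -0.23 to 0.39, Mogs from -0.24 to 0.15, Ganab from 0.12 to 0.28, and the median of the 8 genes from 0.19 to 0.26 (0.26 without CTRL 1). The cause was not tested. Same-numbered libraries correlated at 0.218, -0.044 and -0.039 in their deviations from the group means, and 2 of 6 were most alike to their own number, so the numbers were not taken as pairs. With the replicate block the log2 fold changes were 0.71 for Calr and 0.42 for Canx, and the median of the 8 genes was 0.20 (0.195). The paired exact permutation gave p = 0.25 for the Calr to Canx ratio, the smallest that 3 pairs allow. Precision was limited by 3 libraries a group and by their spread, with a coefficient of variation of 25.8% in CKO and 42.7% in CTRL for Uggt2 and of 7.58% in CKO and 26.6% in CTRL for Mogs.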

Other observations

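Over the 6 libraries, genes whose log2 CPM closely resembled the mean standardised profile of the 8 cycle genes, among 11025 other genes with a mean of at least 10 CPM, included Yif1a, a protein of ER to Golgi transport (Pearson r = 0.997), Lrrc59, a ribosome-associated ER membrane protein (0.993), Ccnd1, cyclin D1 (0.992), and the ER chaperone gene Hyou1 (0.991). Most like Calr alone were Cnn2, calponin 2 (0.996), Serpinb3a, an epidermal serpin (0.992), Hcar2, a hydroxycarboxylic acid receptor (0.991), the disulfide isomerase Pdia6 (0.989) and Ssr4, a subunit of the translocon-associated complex (0.987). The points share library and depth, and r over 6 libraries holds the group difference, so these values describe the ranking only. The log2 fold changes of these named genes ran from 0.43 for Lrrc59 to 2.68 for Serpinb3a.

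The ER stress response element found upstream of Calr and Canx was also looked for in the other lists. It was present for 5 of the 10 ER chaperone genes with a RefSeq window (Hspa5, Hsp90b1, Pdia6, Creld2 and Dnajc3), for 1 of 19 genes of lipid-linked oligosaccharide assembly (Alg12) and for 1 of 9 genes of glycan-dependent degradation (Syvn1). None of the windows of the oligosaccharyltransferase list (11), the lectin partners (4), the exit lectins (4) or the Golgi list (7) held these letters. The log2 fold changes of genes with the element ran from 0.20 for Dnajc3 (SE 0.19) to 1.15 for Hspa5 (SE 0.15). Genes whose windows lacked it included Sdf2l1 (1.497), P4hb (0.79), Pdia4 (0.62) and Rpn1 (0.56) at the high end. Low values without it included Dnajb9 (0.07), Uggt2 (0.03), Man1b1 (0.00), Mogs (-0.06) and Engase (-0.28). A link between the element and the fold change was not tested. A second form, ATTGGNCCACG, was present in 0.0365% of all windows, among these lists in those of Krtcap2 (0.53) and Dnajb11 (0.42), and in none of the 8 cycle genes.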
